A study of Homo sapiens with 6 samples.

Results

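The 9 genes described here make, load or carry the peptides that HLA class I molecules show at the cell surface: HLA-B, HLA-C, HLA-E, HLA-F, B2M, TAP1, TAP2, PSMB8 and PSMB9. They were chosen by gene symbol, and only their values on primary chromosomes were used as the main values. All 9 were among the 23591 symbols that the MDA-MB-231 table holds on primary chromosomes, and 1 of them, TAP1, was among the 1854 symbols of the HMLER table. The study sequenced RNA of 6 libraries: per condition (untreated or DAC), HMLER had 2 libraries and MDA-MB-231 had 1. DAC is decitabine (5-aza-2′-deoxycytidine), a cytidine analog that traps DNA methyltransferases and lowers DNA methylation in dividing cells. It was added daily at 10 µM until the cells were harvested at 72 h, and the untreated cells are labelled as having had no treatment. HMLER cells are human mammary epithelial cells transformed in vitro, and MDA-MB-231 is an established human breast cancer line. One label of the untreated MDA-MB-231 library gives another cell line number, and its title was used.

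In the class I pathway, the proteasome cuts cytosolic proteins into peptides, and interferon replaces its catalytic subunits by PSMB8, PSMB9 and PSMB10. The TAP1 and TAP2 proteins pump the peptides into the endoplasmic reticulum, where chaperones load them on a heavy chain such as HLA-B, HLA-C, HLA-E or HLA-F bound to B2M. Tumours often reduce this machinery, and its promoters carry sites for NF-kappaB, interferon regulatory factors and the NLRC5 enhanceosome. All members but B2M lie in the major histocompatibility complex (MHC) on chromosome 6, a region for which hg19 has, besides the primary chromosome, alternative haplotype sequences that hold further copies of the same genes.

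In MDA-MB-231, 2 of the 9 members reached 1 FPKM on the primary chromosomes, and of these HLA-B had lower bounds of 0. B2M was abundant in both libraries, HLA-B had a low value on the primary chromosome in both, and each was somewhat higher in the DAC-treated library without passing 2-fold. HLA-C was at 0 in the untreated and 0.0171 FPKM in the DAC-treated library, and the other 6 members were listed at 0 in both. In HMLER, TAP1 was 2.18 times as high after DAC. FPKM counts fragments relative to transcript length and to the mapped fragments of the library, so it can be set side by side between genes. With 1 library per condition in MDA-MB-231, and 1 value per condition in HMLER that the authors merged over 2 libraries, no spread between replicates could be computed and no test was made.

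B2M encodes beta-2-microglobulin, the light chain shared by all class I molecules (hg19 chr15:45003556-45011049, plus strand). It was at 515 FPKM in the untreated library, with bounds from Cuffdiff of 253 and 777, and at 628 FPKM in the DAC-treated library, with bounds of 300 and 956. The bounds describe the uncertainty of 1 library each and are not a spread between replicates, and those of the 2 libraries overlapped. The ratio of DAC over untreated FPKM was 1.22. The median ratio was 0.908 over the 11050 symbols that reached 1 FPKM in each library, and dividing by it gave 1.34 for B2M. On the log2 scale with a pseudocount of 1 FPKM the change was 0.28, beside a median of -0.09 over all 12385 symbols that reached 1 FPKM in at least 1 library. B2M ranked 141 by FPKM in the untreated library. It shared none of the 894 stretches of 50 bases of its annotated transcript with any other annotated gene.

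HLA-B, a classical heavy chain that presents peptides to cytotoxic T cells (chr6:31321649-31334844, minus strand), was at 1.35 FPKM in the untreated library, with bounds of 0 and 3.25, and at 2.50 FPKM in the DAC-treated library, with bounds of 0 and 6.02. The ratio was 1.85, or 2.03 after division by the median ratio, and the log2 change was 0.57. Both of its lower bounds were 0, so the level itself was poorly determined in either library. HLA-B also has copies on alternative haplotypes, whose values are given further on, so its primary value is not its whole level and was not ranked against that of B2M. Of its stretches of 50 bases, 20.6% also occur in other annotated genes, and 2.02% occur in HLA-C.

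None of the 9 members passed 2-fold in either direction, where 11.5% of the 12385 symbols at 1 FPKM or more were higher and 5.85% lower. Since only 2 members reached 1 FPKM, this count says little about the other 7. Bounds that did not overlap were found for 1.44% of those symbols and for neither B2M nor HLA-B. The median log2 change of these 2 members was 0.43, and it rests in part on HLA-B, whose level was poorly determined.

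The sequences before the start sites of B2M, HLA-B and TAP1 are shown because these 3 members reached 1 FPKM on the primary chromosomes in at least 1 cell line. Each is the 250 bases before the start, 5′ to 3′ on the strand of the gene, from RefSeq on GRCh38.p14, a build other than the hg19 of the tables: chr15:44711267-44711516 for B2M, chr6:31357180-31357429 for HLA-B and chr6:32853705-32853954 for TAP1. Capitals mark matches, on either strand, to the kappaB motif bound by NF-kappaB and to AANNGAAA, the core of the site of interferon regulatory factors (IRF core).
B2M: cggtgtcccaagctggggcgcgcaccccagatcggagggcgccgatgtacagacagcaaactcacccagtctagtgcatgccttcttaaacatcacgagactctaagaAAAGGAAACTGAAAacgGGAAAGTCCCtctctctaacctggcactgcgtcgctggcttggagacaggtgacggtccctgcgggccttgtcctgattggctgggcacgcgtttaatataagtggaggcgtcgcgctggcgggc
HLA-B: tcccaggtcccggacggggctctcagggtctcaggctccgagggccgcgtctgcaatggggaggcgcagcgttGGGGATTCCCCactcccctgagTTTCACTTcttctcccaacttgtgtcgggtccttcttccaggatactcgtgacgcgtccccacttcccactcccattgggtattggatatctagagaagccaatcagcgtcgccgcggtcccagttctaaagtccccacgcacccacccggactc
TAP1: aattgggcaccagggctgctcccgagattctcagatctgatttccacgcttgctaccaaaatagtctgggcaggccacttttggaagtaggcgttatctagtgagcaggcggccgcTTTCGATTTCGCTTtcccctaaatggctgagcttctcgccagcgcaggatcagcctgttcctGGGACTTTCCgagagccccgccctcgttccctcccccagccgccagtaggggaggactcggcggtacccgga

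In B2M, overlapping IRF core matches began 142 and 136 bases before the start and were followed by a kappaB match at 125 bases. HLA-B had the reverse order, with overlapping kappaB matches at 177 and 176 bases and the IRF core at 155. In TAP1, overlapping IRF core matches began at 134 and 128 bases and the kappaB match at 72 bases before the start. RefSeq windows of 300 bases, 50 of them after the start, matched 8 of the 9 members by symbol, in 10 windows. A kappaB match was present for 4 of these 8 members (HLA-B, HLA-C, TAP1 and B2M), against 5.91% of 35116 windows of all genes. An IRF core match was present for 7, all but PSMB9, against 22.8% of all windows. ATTGG, the inverted CCAAT box bound by NF-Y, was found for 6 members and in 34.6% of all windows. Windows of TAP1 and PSMB9, on opposite strands, overlap at their ends, and the ATTGG match of these members is the same site. TGACG, part of the cAMP response element, was found for 6 members and in 24.6% of all windows. TTCNNNGAA, the gamma-activated site (GAS) of interferon-induced genes, was found for 2 members and in 7.66% of all windows. Motifs were searched on both strands, and members with 2 windows had 2 chances of a match. Sites for NF-kappaB and interferon regulatory factors in these promoters were known beforehand, and the motifs were chosen after the values were seen. HLA-B and HLA-C are paralogs with matches at similar positions, such as the IRF core at 155 and 151 bases, so they are not separate counts. The shares therefore describe these windows and are no test. The windows of B2M and HLA-B and the TAP1 window whose upstream part is shown each held 22 CpG dinucleotides, and the other TAP1 window held 11, where the median over all windows was 14. Methylation of these windows was not analysed here.

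The other heavy chains among the members were at or near 0 on the primary chromosome. HLA-C (chr6:31236526-31239907, minus strand), which also engages inhibitory receptors of natural killer cells, was the only one of them above 0, in the DAC-treated library. HLA-E (chr6:30457286-30461971, plus strand), which presents leader peptides of other class I chains, was listed at 0 in both libraries. HLA-F (chr6:29690552-29706305, plus strand), a nonclassical chain, was listed at 0 in both libraries on all 3 of its primary transcripts. HLA-G, a nonclassical chain and no member, was listed at 0 in both libraries.

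In MDA-MB-231 the genes of the peptide transporter and of the inducible proteasome subunits PSMB8 and PSMB9 were listed at 0. TAP1 (chr6:32812986-32821593, minus strand) and TAP2 (chr6:32789610-32806516, minus strand) encode the 2 chains of the transporter. PSMB8 (chr6:32808494-32812456, minus strand) and PSMB9 (chr6:32811913-32827628, plus strand) encode inducible catalytic subunits. All 4 were listed at 0 FPKM in both MDA-MB-231 libraries. PSMB8 and PSMB9 share none of their 1075 and 968 stretches of 50 bases with another annotated gene, whereas 21.3% of those of TAP1 (20.1% with the antisense gene PSMB8-AS1) and 35.3% of those of TAP2 are shared. Whether strand was used in counting is not given in the sources used here, so reads from the stretches that TAP1 shares with the antisense gene cannot be told apart.

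Within the MHC region these zeros went with the presence of a haplotype copy, and not with the class I pathway alone. Of 210 symbols that lie between 28 and 34 Mb of chromosome 6 and have a copy on an alternative haplotype, 197 (93.8%) were listed at 0 in both libraries and 3 reached 1 FPKM. Of the 27 symbols of the same stretch without such a copy, 6 (22.2%) were listed at 0 and 13 reached 1 FPKM. Of the 28 symbols with a copy at other primary positions, fewer, 16 (57.1%), were listed at 0 and 3 reached 1 FPKM. Over all 23353 symbols without a copy, 20.7% were listed at 0 and 53.0% reached 1 FPKM. All members but B2M have a copy, and the MDA-MB-231 table gives the haplotypes 2193 of its 43497 rows.

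**Figure D1:**
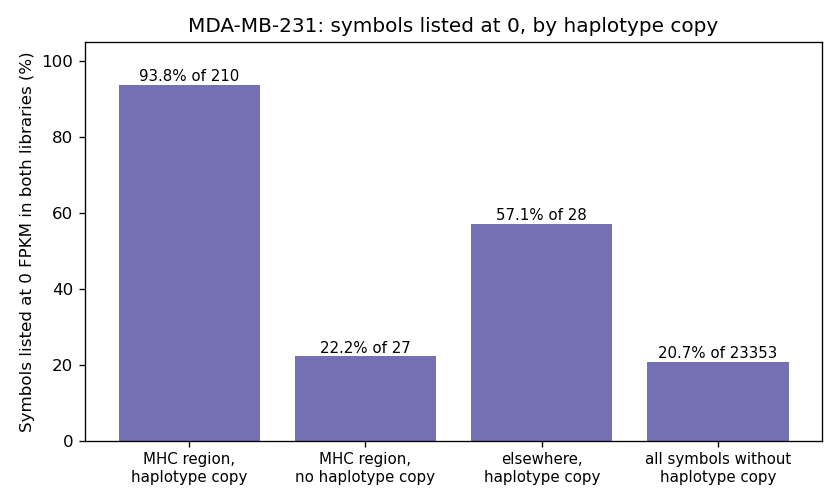
Percent of gene symbols listed at 0 FPKM in both MDA-MB-231 libraries (vertical axis) for 4 sets of symbols, by whether a copy lies on an alternative haplotype; the MHC region is chromosome 6 from 28 to 34 Mb. In the region, 93.8% of 210 symbols with a copy were at 0, against 22.2% of 27 without one. Elsewhere, 57.1% of 28 symbols with a copy were at 0.

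Genes of the region that cells of every type use were affected too. Of 10 such genes looked at, 8 were listed at exactly 0 in both libraries on the primary chromosome, among them RPS18, a protein of the small ribosomal subunit, TUBB, a beta-tubulin, and the RNA helicase gene DDX39B. The other two were BRD2, at 0.219 and 0.275 FPKM, and DAXX, at 0.0109 FPKM in the untreated library and 0 in the other. A value of 0 for a member with a haplotype copy was therefore taken only as a listing and not as absence of the transcript, and no ratio was formed from it. How the deposited values came to be 0 there was not tested.

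On the haplotype rows, which lie outside the main values, HLA-B and HLA-C had values in MDA-MB-231. HLA-B was at 2.76 FPKM untreated and 6.23 after DAC on the cox haplotype, with bounds of 0 to 5.88 and 0.670 to 11.8. It was at 1.05 and 1.69 FPKM on qbl, at 0.532 and 1.05 FPKM on mcf, and at 0 in both libraries on mann and ssto. The value of HLA-B was thus higher after DAC on each of the 3 haplotypes where it had one, and on the primary chromosome. On each of these sequences the bounds of the 2 libraries overlapped, and on qbl, mcf and the primary chromosome both lower bounds were 0. Summed over all sequences it was at 5.69 FPKM untreated and 11.5 FPKM after DAC, a ratio of 2.02. HLA-C was at 1.29 and 2.14 FPKM on mcf, at 0.377 and 0.707 FPKM on mann, and at 0.582 and 0.50 FPKM on dbb, where the DAC value was the lower one. Its sum over all sequences was 2.25 FPKM untreated and 3.38 FPKM after DAC, a ratio of 1.5. All lower bounds of HLA-C were 0, so its levels and those sums were poorly determined. The copies are near-identical and reads may have been divided among them, so the rows of 1 gene are not independent measurements.

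The other members stayed at or near 0 on the haplotypes as well. HLA-F had 18 haplotype rows, PSMB8 14, and TAP1 and PSMB9 7 each, and all were at 0 in both libraries. TAP2 summed to 0.010 and 0.00431 FPKM over 14 haplotype rows, and HLA-E to 0 and 0.00960 FPKM over 6. Summing the copies therefore gave a level of 1 FPKM or more to HLA-C, and to no other member that lacked one.

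**Figure D2:**
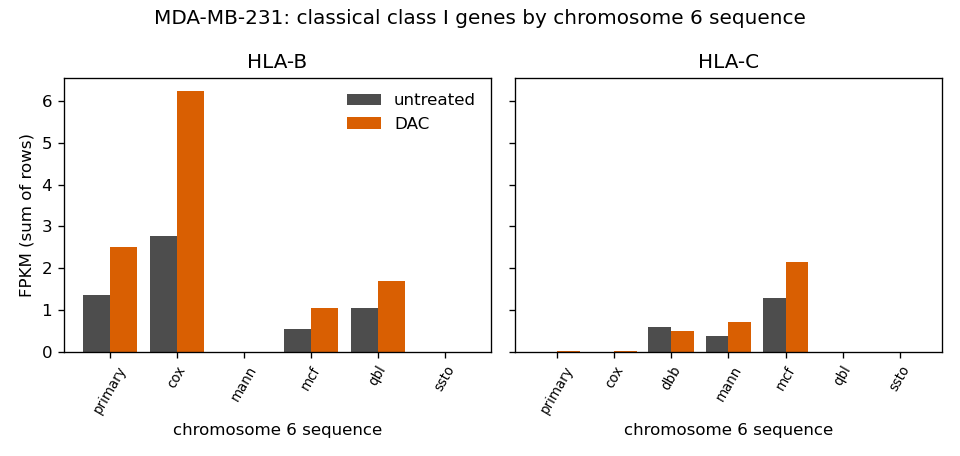
FPKM of HLA-B and HLA-C (vertical axis, sum of the rows of the gene on each sequence) on the primary chromosome 6 and on each alternative haplotype that holds the gene, in MDA-MB-231 without (grey) and with (orange) DAC. The highest pair is HLA-B on cox, from 2.76 to 6.23 FPKM, and HLA-C on dbb is the pair above 0.1 FPKM in which the DAC bar is lower.

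In HMLER the table holds 2009 rows, all with at least 1 FPKM after DAC and a DAC/untreated ratio above 2, and none on an alternative haplotype. TAP1 went from 23.4 FPKM without to 50.9 FPKM with DAC, a ratio of 2.18 and a log2 change of 1.09. It was the 1 member of 9 listed (11.1%), where the table lists 7.85% of the primary-chromosome symbols of the MDA-MB-231 table and 10.9% of those at 1 FPKM or more there. The share of members listed is thus near that of all genes. The other 8 members are not in the table, which may mean that they were lower, changed less than 2-fold or stayed under a filter, and their levels in HMLER were not analysed here. TAP1 alone can be set against its neighbours: PSMB8, PSMB9 and TAP2, which lie beside it, were not listed.

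TAP1 was 1 of 10 symbols of the MHC region listed in HMLER, of 237 in the region, where 7.85% of all symbols were listed. MICA, a stress-induced ligand of the activating receptor NKG2D, was at 8.67 and 18.2 FPKM, and CDSN, an adhesion protein of cornified skin, at 0.404 and 4.85 FPKM. Of the 9 listed symbols with a haplotype copy, 8, among them TAP1 and MICA, were at 0 on the primary chromosome in both MDA-MB-231 libraries. On its 12 haplotype rows MICA summed to 2.50 FPKM untreated and 1.75 FPKM after DAC in MDA-MB-231, a ratio of 0.70, beside the median ratio of 0.908. Only 3 of its rows were above 0, and the highest single value was 2.48 FPKM. Every gene listed in HMLER was higher there by construction, so the direction in the 2 cell lines was not compared. TAP1 was at 0 on its haplotype rows as well. The 1 symbol without a copy, the zinc-finger gene ZNF165, was at 0.808 and 1.79 FPKM in HMLER and at 0.216 and 1.48 FPKM in MDA-MB-231, past 2-fold in both. ZNF165 and NKAPL, at 0.0161 and 1.49 FPKM, were the 2 genes of the region past 2-fold in MDA-MB-231, of 16 that reached 1 FPKM (12.5%, against 11.5% of all symbols).

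The proteasome could be followed in MDA-MB-231, since none of its genes outside the MHC has a haplotype copy. PSMB10, on chromosome 16 (chr16:67968409-67970767), encodes the inducible subunit that joins PSMB8 and PSMB9 in the immunoproteasome. It was at 10.8 FPKM untreated, with bounds of 1.95 and 19.6, and at 21.9 FPKM after DAC, with bounds of 8.0 and 35.9, a ratio of 2.03. The bounds overlapped. Of the 6 genes of the immunoproteasome and its activators, PSMB10 was higher by 2-fold and none was lower by 2-fold. Over all symbols at 1 FPKM or more 11.5% were higher and 5.85% lower, so with 6 genes this says little about the group. PSME1 and PSME2, the subunits of the interferon-inducible proteasome activator, were at 72.6 and 42.6 FPKM untreated and at 93.9 and 60.3 FPKM after DAC, ratios of 1.29 and 1.42. The nuclear activator PSME3 and the assembly factor POMP had ratios of 0.887 and 0.872.

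The constitutive subunits that the inducible ones replace each differed by less than 2-fold between the libraries. PSMB7, replaced by PSMB10, was at 345 FPKM untreated and 324 after DAC. PSMB6, replaced by PSMB9, was at 356 and 316 FPKM. PSMB5, replaced by PSMB8, was at 132 and 90.9 FPKM, a ratio of 0.688, or 226 and 191 FPKM with its transcripts summed, a ratio of 0.844. The ratio was under 1 for all 3, and for 9 of the 11 other genes of the core particle, which were between 39.0 and 573 FPKM in the untreated library, but after division by the median ratio for 2 of the 3 and 5 of the 11. None of these 14 genes passed 2-fold. The most abundant of the others were PSMA7, at 573 and 419 FPKM, and PSMB1, at 560 and 499 FPKM, both structural subunits of the core. Within each library, PSMB10 was 3.13% of PSMB7 before and 6.76% after DAC, a comparison that no scaling between libraries can alter. Even after DAC the inducible subunit was a small part of the constitutive one.

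**Figure D3:**
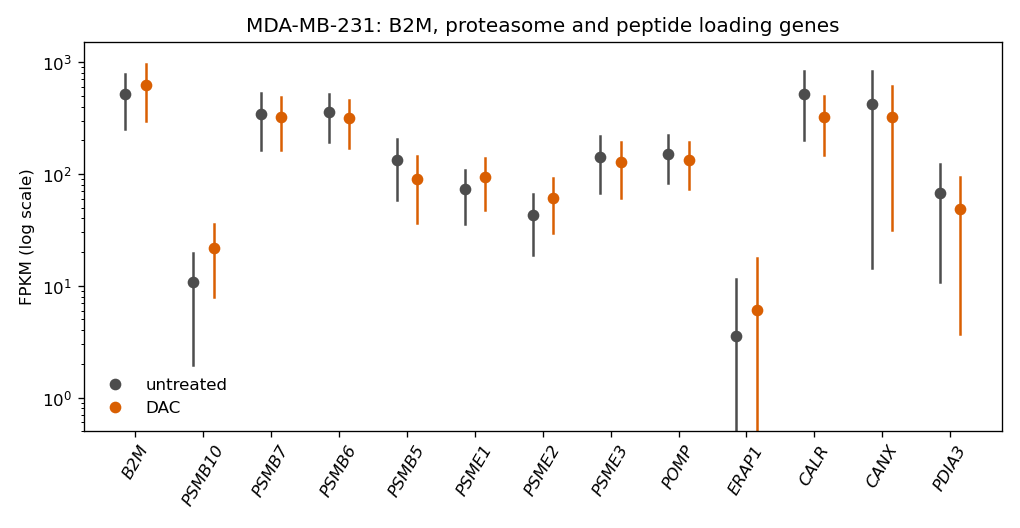
FPKM on a log axis (vertical) of B2M and of genes for the proteasome and peptide loading in MDA-MB-231 without (grey) and with (orange) DAC; points are the deposited FPKM and lines run between the bounds that Cuffdiff gave each library, with lower bounds of 0 drawn to the foot of the axis. PSMB10, from 10.8 to 21.9 FPKM, stays below PSMB5, PSMB6 and PSMB7, and the bounds of each pair overlap.

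Of 9 genes for peptide loading and trimming, 8 reached 1 FPKM in MDA-MB-231 and none passed 2-fold. CALR, the chaperone calreticulin of the loading complex, was at 515 FPKM untreated, with bounds of 201 and 830, and at 325 FPKM after DAC, with bounds of 148 and 501. CANX, the membrane chaperone calnexin, was at 423 and 320 FPKM, and PDIA3, the oxidoreductase of the complex, at 67.2 and 48.5 FPKM. HSPA5, the general chaperone BiP, was at 147 and 80.1 FPKM, a ratio of 0.544. All 4 of these ratios were under 1, also after division by the median ratio, with bounds that overlapped. Of the trimming peptidases, ERAP1 was at 3.58 and 6.04 FPKM and ERAP2 at 0.906 and 1.01 FPKM, where the sum of the transcripts gave ratios of 1.55 and 0.941. TAPBP, the tapasin gene that bridges TAP and the heavy chain, has haplotype copies and was at 0.00711 FPKM in the untreated library and at 0 in the other.

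The class I-like genes outside the MHC region held 4 of the 7 pathway genes past 2-fold. Of the 6 that reached 1 FPKM, 3 were higher and 1 lower, where 11.5% of all symbols were higher and 5.85% lower. With 6 genes, and bounds that overlapped for each of the 4, this says little about the family. ULBP2, a ligand of NKG2D anchored in the membrane by lipid, was at 7.15 FPKM (bounds 0.841 and 13.5) untreated and at 18.1 FPKM (bounds 7.17 and 29.0) after DAC in MDA-MB-231, a ratio of 2.53. In HMLER it was listed at 6.32 and 17.9 FPKM, a ratio of 2.83. The HMLER table holds only rows with a ratio above 2, so the direction there was set by construction, also for the genes below. RAET1G, a related ligand, was at 0.812 FPKM (bounds 0 and 4.28) and 5.18 FPKM (bounds 0 and 14.2) in MDA-MB-231. ULBP1 was at 0.0319 and 0.820 FPKM in MDA-MB-231, under 1 FPKM in both libraries, and at 4.74 and 11.3 FPKM in HMLER. ULBP3 was at 18.0 and 14.3 FPKM in MDA-MB-231, in the opposite direction. These ligands are close paralogs in a cluster on the long arm of chromosome 6, and reads shared between them may have been divided among them.

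FCGRT, the heavy chain of the neonatal Fc receptor, which pairs with B2M, was at 0.222 FPKM untreated, with bounds of 0 and 0.824, and at 5.33 FPKM after DAC, with bounds of 0.609 and 10.0, a ratio of 24.0. With its transcripts summed it was at 0.576 and 6.48 FPKM, a ratio of 11.2. In HMLER another transcript of FCGRT was listed, at 0.604 and 1.42 FPKM. HFE, which also pairs with B2M and takes part in iron sensing, was lower after DAC in MDA-MB-231, at 3.40 and 1.38 FPKM, a ratio of 0.406. Of these 16 class I and class I-like genes, 6 reached 1 FPKM in MDA-MB-231, 3 were higher by 2-fold and 1 lower, and 7 were listed at 0, all but CD1D with a haplotype copy.

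Transcription factors of the class I genes were present in MDA-MB-231 and mostly alike in the 2 libraries. NLRC5, the class I transactivator, was at 1.42 and 1.31 FPKM. IRF1, an interferon-induced activator whose core site is marked in the sequences above, was at 2.80 FPKM (bounds 0.575 and 5.03) and 5.54 FPKM (bounds 2.07 and 9.01), a ratio of 1.98 that was 2.18 after division by the median ratio. IRF2, which binds the same core, was at 5.57 and 3.25 FPKM, a ratio of 0.585, or 0.644 after that division, with bounds that overlapped. RELA, a subunit of NF-kappaB, was at 54.3 and 48.0 FPKM, and NFYC, a subunit of NF-Y, at 23.7 and 22.7 FPKM. CREB1, a factor that binds the cAMP response element, was the 1 gene of these 14 past 2-fold, at 4.28 and 1.76 FPKM, a ratio of 0.411 that became 0.514 when its transcripts were summed. NFYA, another NF-Y subunit, was at 10.4 and 12.8 FPKM in MDA-MB-231, and another of its transcripts was listed in HMLER at 1.54 and 4.09 FPKM.

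Among 9 interferon receptors, kinases and inhibitors, SOCS3, a feedback inhibitor of cytokine receptors, was at 40.5 FPKM untreated, with bounds of 22.2 and 58.8, and at 8.66 FPKM after DAC, with bounds of 3.56 and 13.8. It was the 1 pathway gene past 2-fold whose bounds did not overlap, among 57 that reached 1 FPKM. Over all 12385 symbols at 1 FPKM or more, 1.44% had bounds that did not overlap, so 1 such gene is near that share. JAK1, a kinase of the interferon receptors, was at 30.0 and 27.2 FPKM. SOCS1, a feedback inhibitor of these kinases, was at 1.02 and 1.59 FPKM in MDA-MB-231, with lower bounds of 0. It was listed at 0.412 and 2.44 FPKM in HMLER, where every listed gene was higher by construction.

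Over the 8 lists of pathway genes other than the 9 members, 57 of 81 genes reached 1 FPKM in MDA-MB-231. Of these 57, 4 were higher by 2-fold (7.02%, against 11.5% of all symbols) and 3 lower (5.26%, against 5.85%). The median log2 change was 0.58 for the class I-like genes that reached 1 FPKM and 0.10 for the immunoproteasome genes, beside -0.09 over all symbols. It was -0.02 for the regulators, -0.06 for the interferon receptors and kinases, -0.09 for the other core subunits, -0.16 for loading and trimming and -0.17 for the constitutive catalytic subunits. PSMB10, ULBP2, RAET1G and FCGRT were the ones higher, and HFE, CREB1 and SOCS3 the ones lower. Of the 81 genes, 6 were listed in HMLER, where 7.85% of all symbols were listed. ULBP2 and FCGRT were 2 of these 6 and among the 4 higher by 2-fold in MDA-MB-231. Of all 1425 symbols higher by 2-fold in MDA-MB-231, 471 were listed in HMLER.

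**Figure D4:**
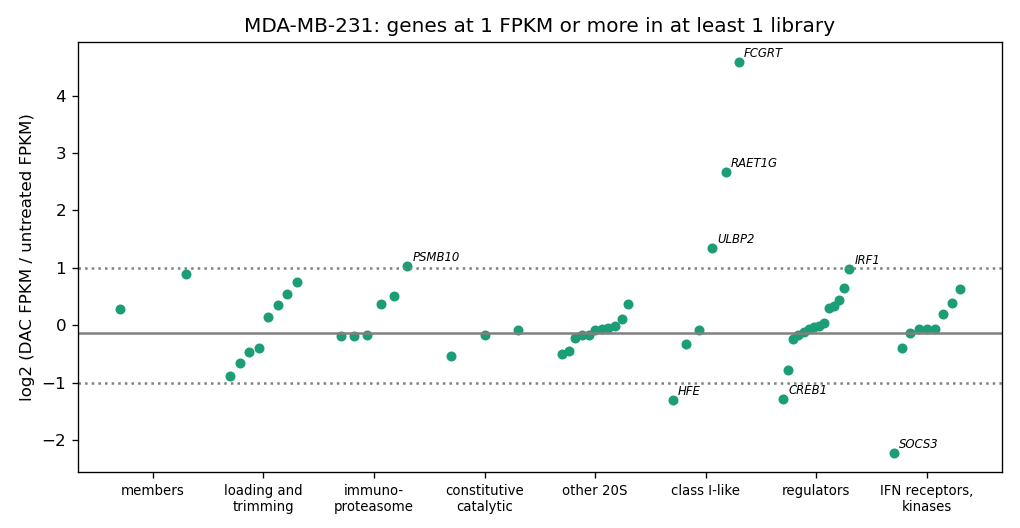
log2 of the DAC over untreated FPKM (vertical axis, no pseudocount) in MDA-MB-231 for genes at 1 FPKM or more in at least 1 library, a point per gene, by list; dotted lines mark 2-fold and the solid line the median over symbols at 1 FPKM or more in each library (-0.14). FCGRT, RAET1G, ULBP2 and PSMB10 lie above the upper dotted line, and SOCS3, HFE and CREB1 below the lower one.

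**Figure D5:**
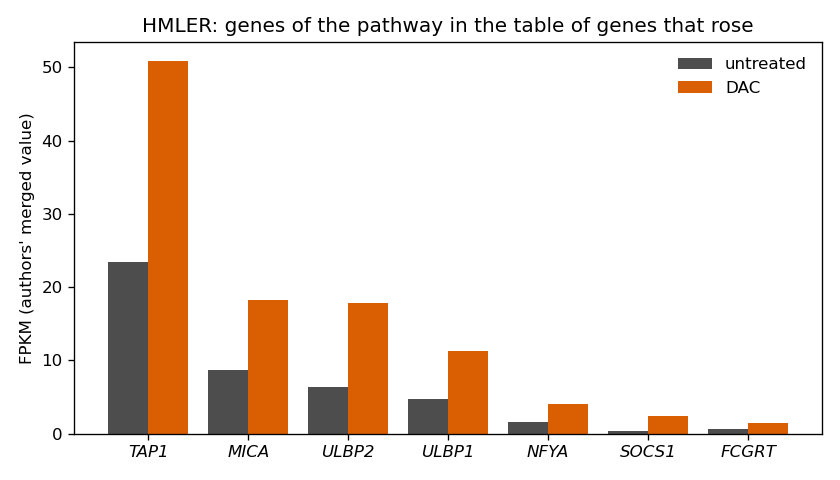
FPKM (vertical axis, the authors' value merged over 2 libraries per condition) of the class I pathway genes in the HMLER table, in untreated (grey) and DAC-treated (orange) cells. TAP1 has the highest values, 23.4 and 50.9 FPKM; all genes of this table had a ratio above 2 by construction.

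Class II genes, which present peptides from outside the cell, had no level of 1 FPKM in MDA-MB-231. Of 13 class II genes 11 were listed at 0 in both libraries, 9 of the 13 with a haplotype copy. CD74, the invariant chain, which has no copy, was at 0 and 0.588 FPKM, and CIITA, the class II transactivator, at 0 and 0.0159 FPKM.

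The libraries were checked against cell markers. In MDA-MB-231, VIM was at 3066 and 1134 FPKM, KRT18 at 171 and 161 FPKM and CD44 at 159 and 98.2 FPKM, and ESR1, PGR and CDH1 were under 0.2 FPKM in both libraries. EPCAM was at 7.90 and 9.78 FPKM, where a low level was looked for. Of 9 leukocyte markers 8 stayed under 1 FPKM in both libraries, MS4A1 and NCAM1 at 0 and CD14 at 0.0347 and 0.512 FPKM, and the ninth, CD68, which tumour cells also express in lysosomes, was at 115 and 138 FPKM. Of 6 fibroblast and endothelial markers, COL1A1 was at 0.853 and 15.6 FPKM and PDGFRB at 0.217 and 1.44 FPKM, and the other 4 were under 1 FPKM. The HMLER table lists the basal keratins KRT5, at 9.85 and 37.1 FPKM, and KRT14, at 11.6 and 52.2 FPKM. Whether a change in the makeup of the cultures had a part in the values above was not tested, and in bulk RNA fewer cells of a type and less RNA per cell cannot be told apart.

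The FPKM value of a single read, from which depth was read, was alike in the 2 MDA-MB-231 libraries. Low FPKM values came in steps of whole reads, within 0.1 of a read for 100% of 769 untreated and of 813 DAC values. Chance gives 20% for a step fixed beforehand, whereas the step here was chosen to give the highest share. Any scaling between the libraries would be part of the step. For 1 kilobase of effective transcript length, the step was 0.0232 FPKM without and 0.0233 FPKM with DAC. The depth of the HMLER libraries is unknown.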

How the data were processed

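Per the labels and the study's methods, TopHat2 was used for alignment to hg19, and Cuffdiff, run on Galaxy, gave FPKM values for RefSeq transcripts. Tool versions are not given in the sources used here. The deposited MDA-MB-231 table holds FPKM values for 1 library per condition with lower and upper bounds, and the deposited HMLER table holds 1 merged FPKM value per condition, for transcripts listed as higher. Columns with the authors' fold changes, test statistics, p-values and q-values were not used.

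Rows on primary chromosomes were kept, and each symbol was represented by its most abundant transcript (FPKM of both conditions added). A symbol was counted as higher or lower when 1 library reached 1 FPKM and the ratio was above 2 or below 0.5. Log2 changes used a pseudocount of 1 FPKM, which understates the change of low genes. Since the values are FPKM without replicates, no test was run. The counting step was tested on simulated data with 200 changed genes. That simulation held only abundant genes, changes well beyond 2-fold and little noise, so it says nothing about calls at low FPKM. Members and gene lists were chosen with earlier results of these data known, and the housekeeping genes, the motifs, the comparison of stretches of 50 bases and the bounds criterion after the values were seen. Genes named were the 9 members, list genes past 2-fold, the 2 most abundant of each list, HLA-G and up to 3 called genes of the region. ERAP1, ERAP2, HSPA5, PDIA3, TAPBP, IRF1, IRF2, NLRC5, PSME1, PSME2, PSMB5, ULBP1, SOCS1, NFYA, CD1D, the marker genes beyond the most abundant, MICA and CDSN were named besides, for their role, after their values were seen. Of the marker lists, COL1A1 and PDGFRB passed 2-fold upward and VIM downward.

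hg19 positions and transcript sequences are those of GENCODE lifted to GRCh37, the same assembly. A window for HLA-E was not analysed here, and some pathway genes are not reported here. Alternatives were other filters, pseudocounts, summed transcripts, summed haplotype rows, division by the median ratio and status OK only. Python 3.11.15, numpy 2.4.6, pandas 2.3.3 and matplotlib 3.10.9 were used.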

Additional observations from a re-analysis of the deposited data

Results flagged for a closer look

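On the alternative haplotypes of chromosome 6, rows that the comparisons do not use, 2 members had a signal of at least 1 FPKM after DAC that was above the untreated library. HLA-B summed to 4.34 FPKM untreated and 8.97 FPKM after DAC on these rows. HLA-C summed to 2.25 and 3.36 FPKM. With 1 library per condition these differences have no replicate check, and on each row the bounds of the 2 libraries overlapped.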

How the results depend on the processing

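No paired analysis was possible because there is 1 merged value per condition for HMLER and 1 library each for MDA-MB-231; leaving out a replicate was not possible for the same reason. The number of members higher by 2-fold in MDA-MB-231 was 0, and became 1 with haplotype rows summed (HLA-B), 1 after division by the median ratio (HLA-B) and 1 without a filter on low values (HLA-C, at 0 and 0.0171 FPKM); 0 members were lower under every alternative run. Of the other pathway genes 4 were higher, against 8 without a filter and 0 when the bounds must not overlap, and 3 were lower, against 1 at a filter of 5 FPKM and 1 when the bounds must not overlap. The log2 change of HLA-C was 0.02, and became 0.43 with haplotype rows summed, 0.16 after division by the median ratio, 0.23 and 1.44 with pseudocounts of 0.1 and 0.01. With haplotype rows summed it was 0.014 for HLA-E and -0.0082 for TAP2, both 0 otherwise. The median log2 change of the members was 0.43, and became 0.58 with a pseudocount of 0.01. The log2 change of TAP1 in HMLER was 1.09, and 1.12 with a pseudocount of 0.1. Leaving aside the members at 0 in both libraries, whose values cannot move under most alternatives, 44 of 57 recomputed values were labelled as unchanged. The criterion was the bounds for single members and 1.5 times the main value for counts and shares. For the median it was the range between B2M and HLA-B, and for TAP1 in HMLER an equal value. Some values could not move, since B2M and HLA-B have 1 primary transcript each and B2M has no haplotype row. The bounds of HLA-B allowed any log2 change from -2.09 to 2.81. The number unchanged is therefore no measure of how firm the results are. The ratio of HLA-B is limited by lower bounds of 0.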
